A study of Homo sapiens with 12 samples.

Results

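Of the 20030 gene rows in the FPKM table, 50 had a symbol that begins with PSMA, PSMB, PSMC, PSMD, PSME, PSMF or PSMG and a digit, or is POMP. Of these, 49 encode subunits, activators, an inhibitor or assembly factors of the proteasome. The other row was PSMC3IP, which encodes a recombination cofactor and not a part of the proteasome, and it is kept apart. The proteasome is the main protease of the cytosol and nucleus. Its barrel-shaped core is built from rings of alpha and beta subunits, with the active sites inside the beta rings, and its cap binds, deubiquitinates and unfolds ubiquitin-tagged proteins before they enter. In immune cells and in cells exposed to interferon, the constitutive active subunits PSMB5, PSMB6 and PSMB7 can be replaced by PSMB8, PSMB9 and PSMB10, which gives the immunoproteasome and changes the peptides made for MHC class I. The members comprised 14 constitutive core genes (7 of the alpha ring, 4 beta subunits without an active site and 3 with one), 3 immunoproteasome genes, 17 cap genes (6 ATPases, 3 other base subunits and 8 lid subunits), 4 alternative activators, 1 inhibitor, 5 core and 3 cap assembly chaperones, and 2 tissue-specific core genes.

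The levels come from mRNA-seq of MOLM-13 and THP-1, established human acute myeloid leukemia (AML) lines of monocytic type that both carry a rearrangement of the MLL gene (MLLr). MOLM-13 cells also carry an internal duplication in FLT3, a receptor kinase gene that is wild type in THP-1 cells. MOLM-13 cells were incubated for 48 h with 0.5 μM Jiyuan oridonin A (JOA), a kaurene diterpenoid from an Isodon plant, and THP-1 cells for 48 h with 2 μM, and the controls of each line were given the solvent DMSO. There were 3 libraries in each of the 4 groups, and line and dose differ together in the JOA groups. The time is that of the sample records and the methods, whereas a legend of the study gives a longer one. Each line is 1 model, and nothing states whether the libraries came from separate cultures, so p-values measure only the spread between these libraries.

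FPKM is a level per length of exon and scaled to the mapped fragments of the library, and the column sums lay between 291100 and 325000. The total number of reads per library was unknown. All 8 myeloid marker genes were above 0 in every library of both lines, from a mean of 2.87 FPKM for ITGAM to 2473 FPKM for LYZ in MOLM-13 controls. Among 8 markers of other lineages, CD3D, a T-cell receptor component, had a mean of 2.83 FPKM in MOLM-13 controls and was listed at 0 in the THP-1 libraries, and the means of the others were at most 0.476 FPKM. With bulk RNA, fewer cells with a transcript and less transcript per cell cannot be told apart.

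All 14 constitutive core genes were expressed in every library, and their control means ranged from 26.3 FPKM for PSMA5 to 271 FPKM for PSMB1 in MOLM-13 cells and from 31.3 FPKM for PSMA5 to 291 FPKM for PSMB4 in THP-1 cells. Transcripts of subunits that sit in the core at equal numbers thus differed up to 10.3-fold in FPKM in MOLM-13 controls. The cap genes lay lower, with a median of their control means of 40.9 FPKM in MOLM-13 and 44.8 FPKM in THP-1 cells, against 85.2 and 76.9 FPKM for the constitutive core. PSMD8 of the lid was the highest cap gene in MOLM-13 controls, with 127 FPKM, and PSMD4, a ubiquitin receptor, was the highest in THP-1 controls, with 115 FPKM. Of the assembly chaperones, POMP, which guides the beta ring, had 117 FPKM in MOLM-13 and 82.5 FPKM in THP-1 controls. PSMG4, the partner of PSMG3 in alpha ring assembly, was the lowest expressed member, with 1.35 ± 0.128 and 0.395 ± 0.0287 FPKM (SD, n = 3). The testis subunit PSMA8 and the thymus subunit PSMB11 were listed at 0 in all 12 libraries. The 49 genes together took up 0.877 to 0.963% of all FPKM in MOLM-13 controls, 0.872 to 0.919% in MOLM-13 cells with JOA, 0.988 to 1.06% in THP-1 controls and 1.04 to 1.08% in THP-1 cells with JOA.

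The means of the single members are given in FPKM in the order MOLM-13 control, MOLM-13 JOA, THP-1 control and THP-1 JOA. The alpha ring, which gates the entry to the core, held genes of very different level. PSMA1 had 61.6, 60.1, 45.4 and 46.6 and PSMA2 80.5, 79.2, 68.4 and 66.4 FPKM. PSMA3 had 153, 153, 119.6 and 123 and PSMA4 97.1, 96.5, 87.5 and 85.1 FPKM. PSMA5 was the lowest of the ring in each group (26.3, 26.2, 31.3 and 29.1 FPKM), and PSMA6 had 52.0, 50.8, 37.4 and 36.2 FPKM. PSMA7 had 129, 126, 210.1 and 216 FPKM and was the highest of the ring in both THP-1 groups. Of the beta subunits without an active site, PSMB1, PSMB3 and PSMB4 were the most abundant members. PSMB1 had 271, 270.2, 274 and 280.1 FPKM and PSMB4 201, 198, 291 and 300.0 FPKM. PSMB3 had 162, 166, 219 and 227 FPKM, whereas PSMB2, with 33.3, 30.7, 33.5 and 34.4 FPKM, was the lowest of the 4.

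The 6 ATPases form the ring that pulls substrates into the core. PSMC1 had 30.2, 30.5, 29.8 and 30.6 FPKM and PSMC2 32.5, 31.2, 28.1 and 31.4 FPKM. PSMC3 had 45.5, 44.2, 50.3 and 52.5 and PSMC4 37.5, 38.8, 41.1 and 43.9 FPKM. PSMC5 had 46.6, 46.8, 64.6 and 71.4 FPKM and PSMC6 24.6, 23.8, 21.3 and 21.3 FPKM. Of the base scaffolds that sit beside them, PSMD1 had 28.9, 27.3, 39.3 and 40.2 FPKM and PSMD2 58.2, 56.1, 74.0 and 75.2 FPKM. In the lid, PSMD14, the deubiquitinase that strips ubiquitin chains, had 40.9, 40.9, 49.6 and 53.3 FPKM. Its partner PSMD7 had 61.8, 61.1, 54.1 and 56.7 FPKM. The scaffold subunits of the lid ranged widely. PSMD3 had 60.9, 60.9, 79.0 and 81.0, PSMD6 35.4, 32.9, 38.8 and 39.8 and PSMD8 127, 128, 112 and 119 FPKM. PSMD11 had 22.0, 21.4, 28.8 and 30.6, PSMD12 21.2, 20.7, 27.5 and 28.5 and PSMD13 56.0, 56.5, 44.8 and 43.4 FPKM.

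Among the activators that bind the core in place of the cap, PSME1 and PSME2 form a mixed ring, PSME3 forms a ring of its own in the nucleus and PSME4 acts as a single chain. PSME1 had 46.4, 44.7, 42.4 and 39.7 FPKM and PSME2 54.6, 55.7, 58.2 and 50.1 FPKM. PSME3 had 46.6, 45.5, 54.1 and 54.4 and PSME4 13.9, 12.9, 12.3 and 11.4 FPKM. The inhibitor PSMF1 had 12.8, 13.1, 8.56 and 8.88 FPKM. The alpha ring chaperones PSMG1 and PSMG2, which act as a pair, had 42.4, 40.5, 34.0 and 33.8 and 78.4, 74.5, 56.8 and 55.1 FPKM. The cap chaperones PSMD5, PSMD9 and PSMD10 each hold a pair of ATPases before the base is built. PSMD9 had 16.4, 16.7, 11.5 and 12.0 FPKM and PSMD10 18.1, 19.1, 12.2 and 12.7 FPKM.

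**Figure D1:**
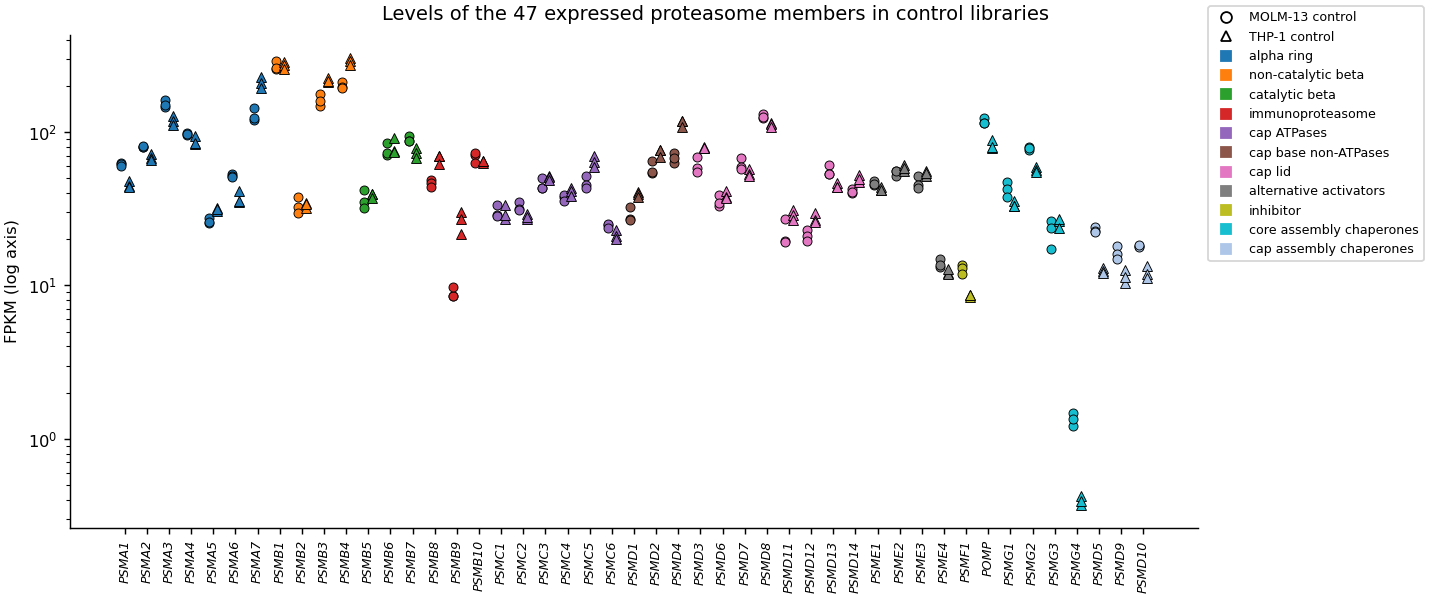
FPKM (log axis) of the 47 expressed members in the 3 MOLM-13 control libraries (circles) and the 3 THP-1 control libraries (triangles), coloured by role. PSMB1, PSMB3 and PSMB4 stand highest, PSMG4 lowest, and the triangles of PSMB9 lie above its circles (21.7 to 30.1 against 8.52 to 9.79 FPKM).

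In 12 of the 49 genes the annotation (GENCODE v29) lists at least 1 pseudogene under the gene's own name (32 in all, 13 of them for PSMC1), and reads shared with such copies make those levels less certain. The PSMB8 gene (chr6:32840717-32844679 on GRCh38) overlaps the antisense gene PSMB8-AS1 (chr6:32844086-32846500). The libraries were stranded, but no source states how strand entered the counting, so reads of the pair cannot be told apart with certainty.

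The catalytic subunits were next compared in each library. PSMB5, which carries the chymotrypsin-like site, was at 42.0, 34.9 and 32.1 FPKM in MOLM-13 control replicates 1 to 3, 39.2, 34.97 and 33.6 FPKM in MOLM-13 JOA, 39.5, 39.5 and 37.0 FPKM in THP-1 control and 40.8, 39.9 and 36.5 FPKM in THP-1 JOA. PSMB6, the caspase-like subunit, was at 84.9, 70.8 and 72.9, then 83.7, 80.8 and 78.0, then 91.0, 75.8 and 74.8 and then 87.9, 84.9 and 75.3 FPKM in the same order of groups. PSMB7, the trypsin-like subunit, was at 94.8, 87.8 and 87.1, then 90.5, 95.9 and 82.3, then 79.0, 73.6 and 67.4 and then 73.4, 74.9 and 71.5 FPKM. For all 3 constitutive subunits, the control and JOA values of a line overlapped. PSMB7 was lower in every THP-1 library than in every MOLM-13 library.

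PSMB8, which takes the place of PSMB5, was at 48.6, 46.4 and 43.6 FPKM in MOLM-13 control replicates 1 to 3, 54.3, 48.2 and 41.8 FPKM in MOLM-13 JOA, 70.1, 70.0 and 62.3 FPKM in THP-1 control and 61.9, 61.6 and 55.5 FPKM in THP-1 JOA. PSMB9, which takes the place of PSMB6, was at 8.59, 8.52 and 9.79, then 10.4, 8.44 and 8.51, then 21.7, 30.1 and 27.1 and then 13.0, 23.3 and 18.9 FPKM. PSMB10, which takes the place of PSMB7, was at 70.9, 62.8 and 73.5, then 84.0, 72.9 and 70.1, then 63.3, 65.2 and 64.7 and then 73.1, 73.5 and 67.4 FPKM. PSMB8 and PSMB9 were thus higher in every THP-1 library than in every MOLM-13 library. With JOA, all 3 THP-1 values of PSMB8 lay below the 3 control values, all 3 values of PSMB10 lay above theirs, and those of PSMB9 overlapped with the controls.

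**Figure D2:**
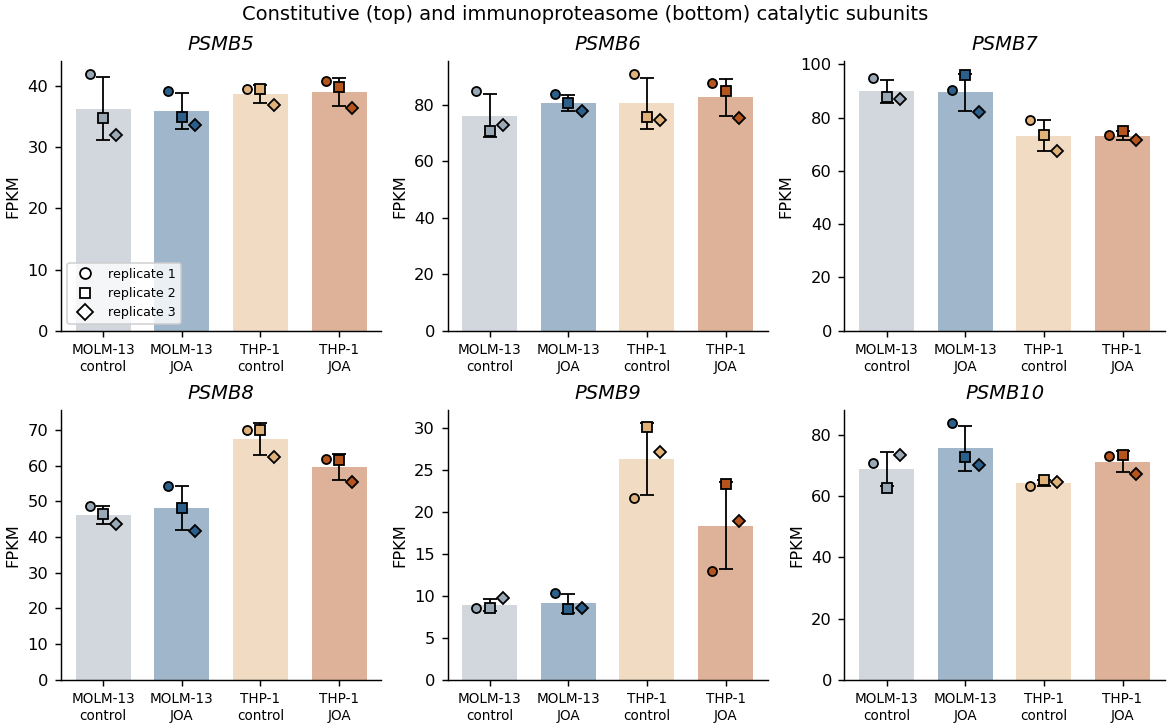
FPKM of the 3 constitutive (top) and 3 immunoproteasome (bottom) catalytic subunits in the 4 groups; bars are means, error bars SD, n = 3, and marker shapes give the replicate number. In THP-1 cells each replicate number is lower with JOA than in the control for PSMB8 and PSMB9, and higher for PSMB10, while the constitutive subunits show no common direction.

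The genes of the immunoproteasome lie in few places. PSMB8 and PSMB9 are on chromosome 6 within the MHC region, on either side of TAP1, a subunit of the transporter that carries peptides to MHC class I, and the starts of TAP1 (chr6:32845209-32853704) and PSMB9 (chr6:32854192-32859851) face away from each other at a distance of 488 bases. PSMB10 is on chromosome 16 (chr16:67934506-67936850), and PSME1 and PSME2, the interferon-inducible activator pair, are 4403 bases apart on chromosome 14. The promoter windows (250 bases before to 50 after the gene start) of 4 genes linked to the immunoproteasome or its activator and of TAP1 are given here in 5′ to 3′ direction of the gene, from RefSeq on GRCh38.p14, to be read beside the values of these genes. Capitals mark matches, on either strand, to the letters GAAANNGAAA, the core of the interferon-stimulated response element.
PSMB9, chr6:32853942-32854241, plus strand: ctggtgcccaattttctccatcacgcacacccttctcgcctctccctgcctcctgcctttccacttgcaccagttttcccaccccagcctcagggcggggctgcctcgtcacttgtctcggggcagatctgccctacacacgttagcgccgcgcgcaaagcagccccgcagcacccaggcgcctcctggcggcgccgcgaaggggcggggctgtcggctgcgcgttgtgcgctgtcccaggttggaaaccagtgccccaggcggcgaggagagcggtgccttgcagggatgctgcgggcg
TAP1, chr6:32853655-32853954, minus strand: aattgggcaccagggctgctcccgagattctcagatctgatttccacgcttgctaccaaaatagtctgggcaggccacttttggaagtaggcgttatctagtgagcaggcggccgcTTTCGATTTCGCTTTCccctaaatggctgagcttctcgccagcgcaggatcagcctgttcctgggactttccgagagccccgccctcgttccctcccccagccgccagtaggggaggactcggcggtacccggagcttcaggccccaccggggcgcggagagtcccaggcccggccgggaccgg
PSMB8, second start, chr6:32843998-32844297, minus strand: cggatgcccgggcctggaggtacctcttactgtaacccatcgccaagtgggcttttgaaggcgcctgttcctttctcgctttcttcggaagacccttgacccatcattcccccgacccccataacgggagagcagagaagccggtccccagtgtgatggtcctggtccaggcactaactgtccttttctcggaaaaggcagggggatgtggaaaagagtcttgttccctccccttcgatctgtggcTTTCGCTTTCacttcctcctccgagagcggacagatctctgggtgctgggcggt
PSMB10, chr16:67936801-67937100, minus strand: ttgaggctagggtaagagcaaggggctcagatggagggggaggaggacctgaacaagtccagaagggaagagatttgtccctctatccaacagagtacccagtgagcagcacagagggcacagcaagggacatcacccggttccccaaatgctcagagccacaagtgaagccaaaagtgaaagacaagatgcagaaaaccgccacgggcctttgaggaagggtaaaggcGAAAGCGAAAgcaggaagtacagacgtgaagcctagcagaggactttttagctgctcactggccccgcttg
PSME2, chr14:24146561-24146860, minus strand: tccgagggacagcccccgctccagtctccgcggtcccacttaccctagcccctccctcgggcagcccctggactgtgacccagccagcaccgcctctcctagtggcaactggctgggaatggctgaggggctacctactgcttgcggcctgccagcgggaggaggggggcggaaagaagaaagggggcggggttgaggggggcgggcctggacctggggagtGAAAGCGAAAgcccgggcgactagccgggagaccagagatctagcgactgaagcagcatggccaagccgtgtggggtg

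GAAANNGAAA was found in 999 of 27305 RefSeq promoter windows (3.66%) when the outermost start of each gene was taken. Of the 43 members with an entry, 6 had it (14.0%): PSMA4, PSMB10, PSMB4, PSME1, PSME2 and PSMG4. Counted from the gene start, the match began at -21 in PSMB10, at -28 in PSME2 and at 5 in PSME1, and TAP1 had 2 overlapping matches from -134 and -128. The outermost PSMB8 window held no match, whereas the window of its second start, printed above, held one from -4. The PSMB9 window held none, and the TAP1 matches lie between the starts of TAP1 and PSMB9 but outside that window. TTCNNNGAA, the letters of an interferon-gamma-activated site, was in 5 of 43 member windows against 7.88% of all windows. With outermost starts none of the 5 was an immunoproteasome gene. The printed window of the second PSMB8 start, which was not counted, does contain these letters (ttctcggaa). TGACNNNGC, the letters shared by antioxidant response elements, was in 13 of 43 (30.2%) against 13.6% of all, and those genes included PSMB9, PSME1 and PSME2. In the member windows no match of one motif overlapped a match of another. These matches describe letters only, and the motifs were chosen with results of these data known.

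To see how the lines differ before treatment, THP-1 controls were compared with MOLM-13 controls. The largest fold differences were those of PSMB9, 2.93-fold higher in THP-1 cells, and of PSMG4, the lowest expressed member, which was lower, and the smallest adjusted p of a member was that of PSMD5, also lower. Limma was fitted to log2(FPKM + 0.1) of 12635 genes whose mean reached 0.1 FPKM. Genes were called where the p adjusted by Benjamini-Hochberg was under 0.05 and the log2 fold change was 0.58 or more in either direction. On this scale changes of low genes such as PSMG4 are understated. It called 25% of all genes higher and 19% lower in THP-1 cells, whereas of the 48 member rows that passed the filter, PSMC3IP included, 4 were called higher and 2 lower. The median log2 fold change was 0.011 over the 47 proteasome genes and 0.06 over all genes. The 47 genes were therefore called less widely than genes at large, which is a description and was not tested.

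PSMB9 differed by a log2 fold change of 1.53 ± 0.12 (SE, adjusted p = 1.00e-05). PSMD4, the ubiquitin receptor of the cap, was at 73.2, 62.6 and 67.6 FPKM in MOLM-13 and 119, 118 and 108 FPKM in THP-1 controls, a log2 fold change of 0.76 ± 0.07 (adjusted p = 3.23e-05). PSMA7 of the alpha ring was at 143, 121 and 124 and 229, 208 and 193 FPKM, a difference of 0.70 ± 0.09 on the log2 scale (adjusted p = 1.61e-04). These 3 genes did not overlap between the lines. The recombination gene PSMC3IP was called as well, with 0.89 ± 0.09 (adjusted p = 3.43e-05). The members called lower in THP-1 cells were both assembly factors. PSMG4 was at 1.47, 1.21 and 1.35 FPKM in MOLM-13 and 0.367, 0.425 and 0.395 FPKM in THP-1 controls, a log2 fold change of -1.54 ± 0.13 (adjusted p = 1.48e-05). PSMD5, a chaperone of the cap base, was at 24.0, 22.7 and 22.2 and 13.1, 12.3 and 12.1 FPKM, a log2 fold change of -0.87 ± 0.06 (adjusted p = 5.34e-06). Scaling changed the calls near the threshold: after rescaling to TPM, PSMB4 and PSMB8 were also called higher (6 higher and 2 lower, with the median of all genes at 0.17 in place of 0.06), and with median ratio scaling PSMD10 and PSMF1 were also called lower (4 higher and 4 lower). PSMB9, PSMD4, PSMA7, PSMD5 and PSMG4 were called under both scalings.

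With the adjusted p alone, 39% of all genes were higher and 32.2% lower, and of the 47 proteasome genes 15 were higher and 17 lower, so that the roles can be compared. The assembly chaperones were mostly lower in THP-1 cells: 4 of 5 core chaperones (PSMG1, PSMG2, PSMG4 and POMP) and 3 of 3 cap chaperones (PSMD5, PSMD9 and PSMD10) passed, and 0 were higher. PSMG3 had a log2 fold change of 0.21 (adjusted p = 0.207). All 3 base subunits without ATPase activity were higher, PSMD1 and PSMD2 by 0.45 and 0.35 on the log2 scale. Of the 8 lid genes 4 were higher and 2 lower, and of the 6 ATPases, which unfold substrates, 1 was higher (PSMC5, 0.47) and 2 were lower (PSMC2 and PSMC6). In the alpha ring 4 of 7 were lower (PSMA1, PSMA2, PSMA3 and PSMA6) and 2 higher (PSMA5 and PSMA7), and among the beta subunits without an active site PSMB3 and PSMB4 were higher by 0.44 and 0.53. The inhibitor PSMF1 was lower, with a log2 fold change of -0.57 ± 0.07 (adjusted p = 1.40e-04). Among the catalytic subunits, PSMB7 was lower (-0.30 ± 0.07, limma adjusted p = 0.00628) and PSMB8 higher (0.54 ± 0.07, adjusted p = 1.72e-04). Neither PSMB5 (0.10, 95% confidence interval -0.12 to 0.32), PSMB6 (0.08, -0.15 to 0.31) nor PSMB10 (-0.10, -0.26 to 0.06) passed. PSME1 (-0.13, adjusted p = 0.0551) and PSME2 (0.09, adjusted p = 0.191) did not pass either. Over all 6 THP-1 and 6 MOLM-13 libraries, 30 of the 47 expressed genes did not overlap between the lines (14 higher and 16 lower in THP-1 cells), against 63.8% of all genes.

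**Figure D3:**
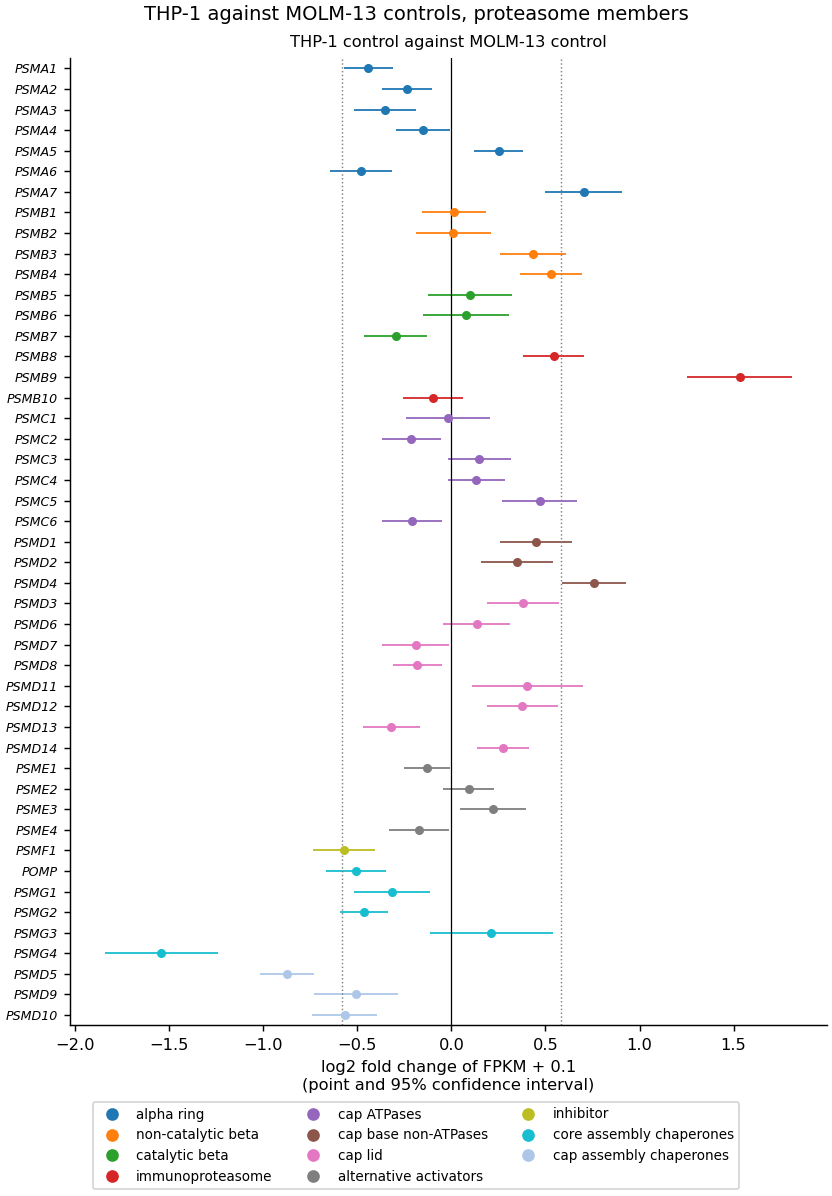
Log2 fold change of THP-1 over MOLM-13 controls for the 47 expressed members, coloured by role, with 95% confidence intervals from limma and dotted lines at the fold threshold of 0.58. PSMB9 (1.53) and PSMG4 (-1.54) lie farthest from 0, and the points of the assembly chaperones lie left of 0 except that of PSMG3.

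JOA at 0.5 μM did not change any member by the test in MOLM-13 cells. Limma called 0 of the 11693 genes tested (0%). An unadjusted p under 0.05 was seen in 481 genes, and of the 47 proteasome genes 1 had (PSMG4). With the libraries blocked by replicate number the count of called genes was also 0, 1295 had an unadjusted p under 0.05, and 0 members passed an adjusted p alone (0% of all genes). The summed constitutive core was at 1411 to 1569 FPKM in the controls and 1397 to 1515 FPKM with JOA, the summed cap at 761 to 865 and 758 to 827 FPKM, and the summed immunoproteasome at 118 to 128 and 120.4 to 149 FPKM, so each overlapped. The median log2 fold change was -0.01 over the constitutive core, 0.05 over the 3 immunoproteasome genes and -0.012 over the cap, against 0.005 over all genes. The intervals were narrow, and for 46 of the 47 genes the 95% confidence interval lay within 0.58 on either side of 0, the exception being PSMG4.

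PSMG4 was at 1.47, 1.21 and 1.35 FPKM in the controls and 0.991, 1.03 and 1.18 FPKM with JOA, and the groups did not overlap. Its log2 fold change of -0.31 ± 0.12 had an unadjusted p of 0.0373 and an adjusted p of 1 in limma. The values of PSME4, an activator of the nuclear proteasome, did not overlap either, at 14.8, 13.3 and 13.5 and 13.0, 12.4 and 13.2 FPKM (-0.10 ± 0.07, adjusted p = 1). These 2 were lower, none was higher, and 4.55% of all genes were lower and 5.1% higher without overlap. PSMC3IP, kept apart, was lower without overlap too (-0.21 ± 0.08, limma adjusted p = 1). The next largest changes were those of PSMB10, 0.13 (95% confidence interval -0.07 to 0.33), and of the beta subunit PSMB2, -0.11 (-0.32 to 0.09). For the other catalytic genes the log2 fold changes were -0.01 (-0.25 to 0.23) for PSMB5, 0.09 (-0.09 to 0.27) for PSMB6 and -0.01 (-0.17 to 0.16) for PSMB7. They were 0.05 (-0.17 to 0.27) for PSMB8 and 0.02 (-0.21 to 0.25) for PSMB9, and -0.06 (-0.20 to 0.09) for PSME1 and 0.03 (-0.13 to 0.18) for PSME2. Replicate 1 of the MOLM-13 controls had the highest value of its group in 38 of the 47 genes and replicate 1 of the JOA libraries in 33, against 43.2% and 42.8% of all genes, so replicate 1 stood high in both groups.

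In THP-1 cells JOA at 2 μM lowered PSMB9, PSMB8, PSME2 and PSMG3 in every replicate number and raised PSMD4, but these changes passed a test only when the replicate numbers were taken as pairs and no fold threshold was set. Without pairing, limma called 17 of 12712 genes (0.134%) and 0 of the members. In that fit 8 of the 47 proteasome genes had an unadjusted p under 0.05, a share similar to the 2146 of all 12712 genes. Leaving out any 1 THP-1 library took the 17 to 0 or 1. Blocking by replicate number raised this to 161 genes (1.27%), again with 0 members. With the block and the adjusted p alone, 5.37% of all genes rose and 2.69% fell, and of the members 1 rose (PSMD4) and 4 fell (PSMB9, PSMB8, PSME2 and PSMG3). For 46 of the 47 genes the unpaired 95% confidence interval lay within 0.58 of 0, and the exception was PSMB9.

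PSMB9 had the largest change. Its values of 21.7, 30.1 and 27.1 FPKM in control and 13.0, 23.3 and 18.9 FPKM in JOA replicates 1 to 3 gave ratios of 0.598, 0.773 and 0.696 within the replicate numbers. Replicate 1 was the lowest in both groups, so the groups overlapped while the JOA value was the lower in each pair. The log2 fold change was -0.54 ± 0.21 with an adjusted p of 0.242 in limma without the block and 0.00950 with it. PSMB8 gave ratios of 0.883, 0.880 and 0.890, the most even of the genes that passed, and a log2 fold change of -0.18 ± 0.07 (adjusted p = 0.240, with the block 0.0328). PSMB10, the third immunoproteasome gene, had the opposite sign, with ratios of 1.16, 1.13 and 1.04 and 0.15 ± 0.05 (adjusted p = 0.2003, with the block 0.0867), and did not pass. The log2 fold changes of the constitutive subunits were 0.01 (95% confidence interval -0.12 to 0.15) for PSMB5, 0.04 (-0.17 to 0.25) for PSMB6 and 0.00 (-0.14 to 0.15) for PSMB7.

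PSME2, a subunit of the activator that opens the core without ATP, was at 55.9, 60.8 and 57.9 FPKM in control and 44.0, 56.2 and 50.2 FPKM in JOA replicates, with ratios of 0.788, 0.924 and 0.866 and a log2 fold change of -0.22 ± 0.09 (adjusted p = 0.252, with the block 0.0433). Its partner PSME1 was at 41.7, 43.6 and 41.8 and 33.4, 41.9 and 43.8 FPKM, and only JOA replicate 1 was clearly low (-0.10 ± 0.10, adjusted p = 0.633, with the block 0.398). PSMG3, an alpha ring chaperone, was at 26.3, 27.03 and 23.8 and 21.2, 21.4 and 22.2 FPKM, without overlap (-0.25 ± 0.06, adjusted p = 0.103, with the block 0.0427). PSMD4 was at 119, 118 and 108 and 139, 128 and 125 FPKM, without overlap, and rose by 0.19 ± 0.06 (adjusted p = 0.175, with the block 0.0348). The paired calls depended on the variance model and on the replicates. With the block but no mean-variance trend in eBayes, 0 genes of 12712 passed and the adjusted p was 0.122 for PSMB9 and 0.157 to 0.177 for the other 4. When replicate pair 1, 2 or 3 was left out, 6, 1 and 2 members passed, against 9.15%, 4.59% and 5.77% of all genes. PSMB9 was among them each time (limma adjusted p = 0.00362, 0.00298 and 0.00647). With 2 pairs left, each gene had 1 residual degree of freedom. These p-values therefore lean on the mean-variance trend and cannot show that the call is stable. Without JOA replicate 1 alone, the unpaired log2 fold change was -0.31 for PSMB9 and -0.13 for PSME2.

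**Figure D4:**
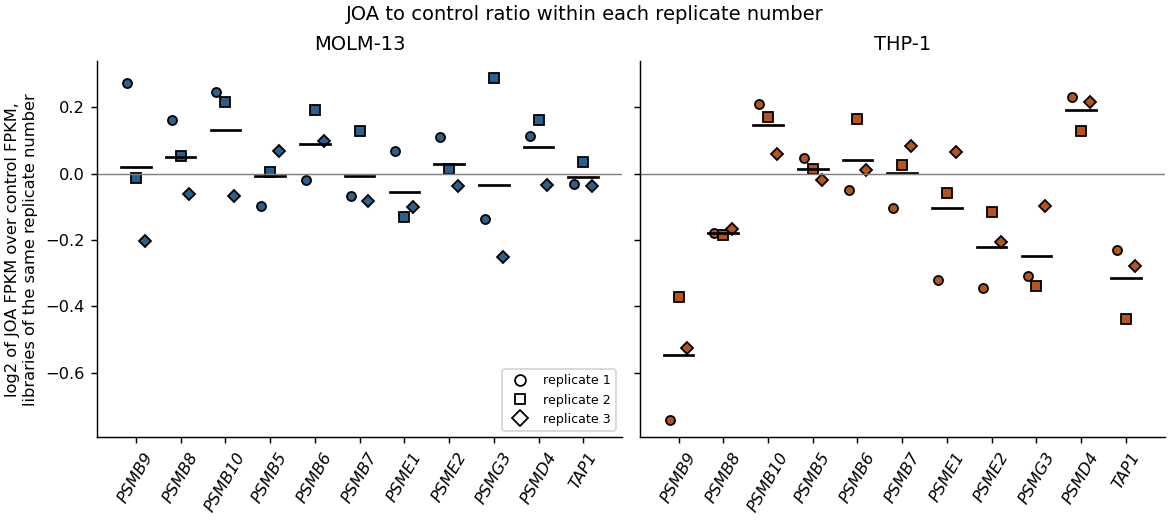
Log2 ratio of JOA to control FPKM between libraries of the same replicate number (marker shape) in MOLM-13 (left) and THP-1 cells (right), with lines at the mean of the 3 pairs. In THP-1 cells all 3 pairs of PSMB9, PSMB8, PSME2, PSMG3 and TAP1 lie below 0 and all 3 of PSMB10 and PSMD4 above it, whereas in MOLM-13 cells the pairs of these genes lie on both sides of 0.

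With the block and the adjusted p alone, PSMD4 was the only cap gene that passed in THP-1 cells with JOA on the FPKM as deposited with the filter of 0.1. The ATPase PSMC5 also passed after rescaling to TPM and without replicate pair 1, and the ATPase PSMC2 with a filter of 1 FPKM, all tried after seeing the data. Of the 17 cap genes, 16 had a positive log2 fold change, with a median of 0.06, against 10 of 14 and 0.035 for the constitutive core and 56.7% and 0.02 for all genes. Within the core, 3 of 7 alpha ring genes were positive (median -0.039). All 4 beta subunits without an active site (0.044) and all 3 with one (0.014) were positive. The median of the cap was 0.085 after rescaling to TPM and 0.038 with median ratio scaling, where 16 and 15 genes were positive and the medians of all genes were 0.045 and 0.001. For the constitutive core 8 of 14 were positive with median ratio scaling (median 0.013), and 12 without replicate pair 1 (0.079), 6 without pair 2 (-0.0011) and 8 without pair 3 (0.011), so its direction depended on single pairs. Without these pairs 16, 15 and 14 cap genes were positive. Of the ATPases, PSMC2 had a log2 fold change of 0.16 ± 0.07 (limma adjusted p = 0.282, with the block 0.0617) and PSMC5 0.15 ± 0.08 (adjusted p = 0.379, with the block 0.0622). The summed cap was at 860.2 to 939 FPKM in THP-1 controls and 929 to 977 FPKM with JOA, and the summed constitutive core at 1527 to 1709 and 1602 to 1683 FPKM. Over all 47 genes, 5 were higher and 4 lower without overlap between the groups, against 14.6% and 8.81% of all genes, so the share of members was no larger. In all 3 replicate pairs 11 members were higher, 9 of them cap genes, and 7 were lower, against 29.3% and 19.4% of all genes. The lower ones included PSMA5, PSME4 and PSMG4, which did not pass an adjusted p with the block. PSMA5 and PSME4 were lower without overlap, and PSME4 was so in MOLM-13 cells as well.

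**Figure D5:**
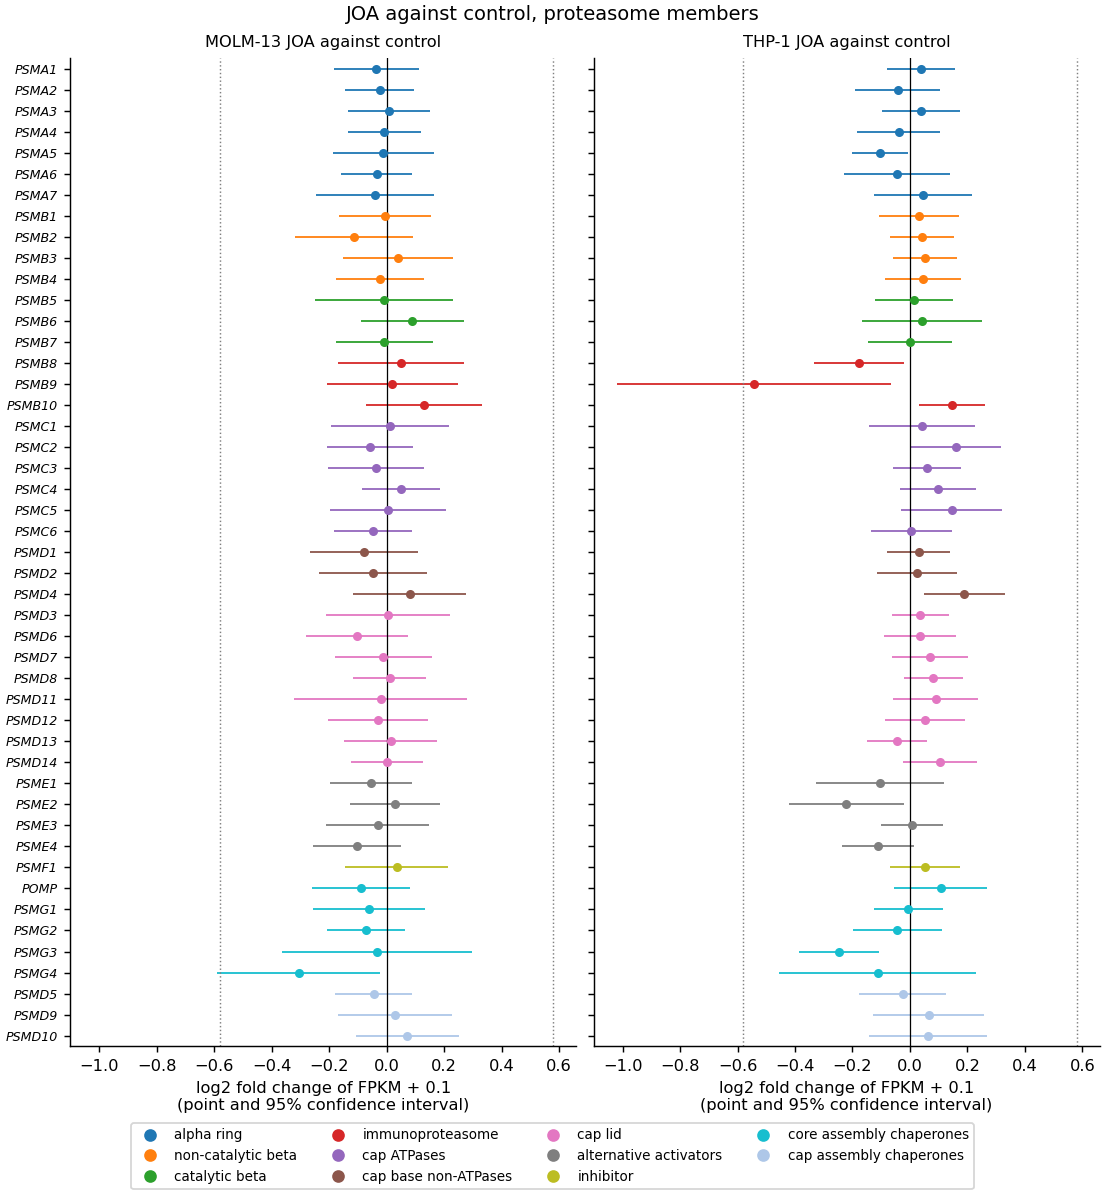
Log2 fold change of JOA over control for the 47 expressed members in MOLM-13 (left) and THP-1 cells (right), coloured by role, with 95% confidence intervals from limma without pairing and dotted lines at the fold threshold of 0.58. In THP-1 cells PSMB9 (-0.54) stands apart on the left and most cap genes lie right of 0, while the MOLM-13 points other than PSMG4 lie between -0.11 and 0.13.

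The balance of immunoproteasome and constitutive subunits was described as the ratio of FPKM within each library. PSMB8 to PSMB5 was 1.16, 1.33 and 1.36 in MOLM-13 controls, 1.38, 1.38 and 1.24 in MOLM-13 JOA, 1.77, 1.77 and 1.69 in THP-1 controls and 1.52, 1.54 and 1.52 in THP-1 JOA. In THP-1 cells it went from 1.74 ± 0.0496 to 1.53 ± 0.0146 (SD, n = 3) without overlap, and the exact two-sided permutation p was 0.1, the smallest that 3 libraries against 3 allow. PSMB9 to PSMB6 was 0.101, 0.120 and 0.134 in MOLM-13 controls, 0.124, 0.105 and 0.109 in MOLM-13 JOA, 0.238, 0.398 and 0.363 in THP-1 controls and 0.147, 0.275 and 0.251 in THP-1 JOA. It was lower with JOA in each of the 3 THP-1 replicate pairs, while the groups overlapped (exact permutation p = 0.3 without pairing). It did not overlap between the controls of the lines (exact permutation p = 0.1, THP-1 higher). PSMB10 to PSMB7 was 0.747, 0.715 and 0.843 in MOLM-13 controls, 0.928, 0.760 and 0.853 in MOLM-13 JOA, 0.801, 0.887 and 0.960 in THP-1 controls and 0.996, 0.981 and 0.944 in THP-1 JOA, and overlapped in all 3 comparisons. Between the control lines PSMB8 to PSMB5 did not overlap either (exact permutation p = 0.1, THP-1 higher). Over the 9 comparisons of ratios no exact permutation p, adjusted by Benjamini-Hochberg, was below 0.3, and this design could not reach 0.05. A ratio of transcripts shows unequal change and not the make-up of the assembled core.

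A different response of the lines to JOA was tested by the line-by-treatment interaction over all 12 libraries. Limma called 0 of 12626 genes (0%), 914 with an unadjusted p under 0.05, and with the block 6 genes (0.0475%), none of them a member. PSMB9 had the largest interaction of the members, -0.56 ± 0.26 (adjusted p = 0.686, with the block 0.117), so the THP-1 and MOLM-13 changes of PSMB9 were not shown to differ. PSME2 (-0.25 ± 0.12, limma adjusted p = 0.693), PSMB8 (-0.23 ± 0.13, adjusted p = 0.754) and PSMC2 (0.22 ± 0.09, adjusted p = 0.663) followed among the proteasome genes. For PSMB10 it was 0.02 (95% confidence interval -0.21 to 0.25). As the doses differed, line and dose cannot be told apart here.

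Genes that work with the proteasome or with its peptide products were then examined. Of 9 interferon and MHC class I genes, 1 rose and 1 fell in THP-1 cells with JOA by the adjusted p alone with the block. In that fit 5.37% of all genes rose and 2.69% fell, and without the block 0 of the 9 passed. TAP1, the neighbour of PSMB9, was at 13.7, 17.1 and 12.5 FPKM in control and 11.7, 12.6 and 10.3 FPKM in JOA replicates, lower in each replicate number with ratios of 0.853, 0.738 and 0.824 (-0.31 ± 0.12, limma adjusted p = 0.252, with the block 0.0227). Without THP-1 control replicate 2 its log2 fold change was -0.19. Of the other genes of the same route, ERAP1, which trims peptides, rose by 0.26 ± 0.05 (adjusted p with the block = 0.0248), and IRF1 had -0.23 (adjusted p with the block = 0.103). In MOLM-13 cells with JOA 0 of these 9 and 0 of 24 partners of the proteasome (ubiquitin receptors, shuttle factors, deubiquitinases and regulators of proteasome genes) passed. The largest log2 fold change of a partner was that of ZFAND2A (0.21), and those of the class I genes were of ERAP2 (-0.15) and IRF1 (0.11). Beside these results, 4 of 8 myeloid markers passed the adjusted p alone with the block in THP-1 cells with JOA, and 0 without it. ITGAM, CD68 and CD33 rose and MPO fell. The summed level of the 8 markers was 985.5 to 1594 FPKM in control and 1076 to 1351 FPKM in JOA libraries. Most of that sum was LYZ, with means of 1032 FPKM in THP-1 control and 895 FPKM in THP-1 JOA libraries. Whether the partner and marker genes have a part in the changes of PSMB9, PSMB8, PSME2, PSMG3 and PSMD4 was not tested.

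Between the control lines, NFE2L1, a transcription factor of proteasome genes, was at 22.0, 21.6 and 19.2 FPKM in MOLM-13 and 43.9, 42.2 and 41.3 FPKM in THP-1 cells (1.02 ± 0.07, limma adjusted p = 3.60e-06). ZFAND2A was called higher (0.76 ± 0.15, adjusted p = 0.00181) and the shuttle factor UBQLN2 lower (-0.82 ± 0.08, adjusted p = 2.77e-05) in THP-1 cells. In the MHC class I route, TAP2 (1.54 ± 0.08, limma adjusted p = 7.97e-07) and B2M (1.03 ± 0.09, adjusted p = 1.98e-05) were called higher, as was PSMB9. ERAP2, a peptide-trimming enzyme, was at 5.23, 5.92 and 6.60 FPKM in MOLM-13 and 0.405, 0.567 and 0.494 FPKM in THP-1 controls and was called lower (-3.36 ± 0.14, limma adjusted p = 3.07e-07).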

How the data were processed

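The report uses mRNA-seq levels of 12 libraries, 3 in each of the groups MOLM-13 control, MOLM-13 JOA, THP-1 control and THP-1 JOA, grouped by their sample titles. The deposited values are FPKM, which the authors computed per gene from paired-end reads of a stranded mRNA library. The submitters' processing notes name Trimmomatic, HISAT2, HTSeq and Cufflinks and the build hg38, while versions, annotation and settings are not given in the sources used here. FPKM keeps no read depth, so intervals cover the spread between libraries only. The members and gene lists, motifs and alternatives were chosen with earlier results of these data known. Members were taken by symbol, and genes were named by a rule: catalytic, immunoproteasome, PSME1 and PSME2 genes in every comparison, the 5 members of largest absolute log2 fold change, and called genes; PSMC2, PSMC5, IRF1, ADRM1, SEM1 and the examples given for single roles were added after their values were seen.

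FPKM values were transformed to log2(FPKM + 0.1), genes with a mean of at least 0.1 FPKM over the libraries of a comparison were kept, and each comparison was fitted over all genes with limma 3.58.1 (eBayes with trend) in R 4.3.3, with Benjamini-Hochberg adjustment. The thresholds for a call were 0.05 for the adjusted p and 0.58 for the size of the log2 fold change. The fit within a line used the 6 libraries of that line, and the interaction used all 12. Ratios were compared with exact permutation tests (scipy 1.17.1, Python 3.11.15). The methods of the study name no pairing of the libraries. Deviations of same-numbered control and JOA libraries from their group means correlated at 0.264 to 0.398 in MOLM-13 and 0.139 to 0.320 in THP-1 cells. Differently numbered libraries correlated at -0.256 to 0.017 in MOLM-13 and -0.259 to -0.028 in THP-1 cells. On these correlations of the same data alone the numbers were taken as pairs within a line. The fit with the replicate number as a block is an alternative, given beside the results it changes. Across the control lines the correlations were 0.0698 to 0.131 for the same number and -0.079 to 0.015 for different numbers. There the numbers were not taken as pairs. Other pseudocounts, filters, scalings, thresholds and left-out libraries were tried, and the scripts were tested on simulated data. Promoters came from RefSeq (GRCh38.p14) and pseudogenes from GENCODE v29. SHFM1 and KIAA0368 were listed under their newer symbols. Some results on partner genes are not reported here.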

Additional observations from a re-analysis of the deposited data

How the results depend on the processing

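The number of members called was 0 for both JOA comparisons and the interaction under every alternative chosen at the start except 1. The direction of the 6 called rows of the line comparison did not change under any in which they were tested. With a filter of 1 FPKM, PSMG4 was not tested between the lines, and so its call was lost. With the replicate block and an adjusted p alone, 5 members passed in THP-1 cells with JOA. Under that setting 0 passed without a variance trend, and 1 to 6 when a replicate pair was left out, against 4.59 to 9.15% of all genes. After rescaling to TPM PSMG3 missed the threshold (adjusted p = 0.0567) and PSMC5 passed, and with a filter of 1 FPKM PSMC2 passed as well. These settings were chosen after seeing the data. Between the lines 33 rows passed an adjusted p alone, and 37 with the block, in which the numbers do not pair the lines. The cause of these differences was not tested. The block changed no other call of a member.

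Signs near 0 depended on scaling and on single libraries. With median ratio scaling the log2 fold change in THP-1 cells with JOA was -0.0080 for PSMB5 and -0.021 for PSMB7, with and without the block, and the interaction of PSMB10 was -0.0091. Leaving out 1 library at a time moved the log2 fold change with JOA in MOLM-13 cells from -0.093 to 0.10 for PSMB5, -0.058 to 0.052 for PSMB7, -0.041 to 0.15 for PSMB8, -0.077 to 0.084 for PSMB9, -0.028 to 0.068 for PSME2 and -0.079 to 0.21 for IRF1. In THP-1 cells the ranges were -0.018 to 0.063 for PSMB5, -0.0092 to 0.13 for PSMB6, -0.058 to 0.056 for PSMB7 and -0.18 to 0.015 for PSME1. Between the control lines PSMB6 ranged from -0.013 to 0.16, and the interaction of PSMB10 from -0.037 to 0.093. In THP-1 cells with JOA PSMB9 lay between -0.73 and -0.31, PSME2 between -0.31 and -0.13 and TAP1 between -0.41 and -0.19.

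The number of all genes called in THP-1 cells with JOA was 17, against 8 with a pseudocount of 1, 0 with any value above 0 kept, 1 without a variance trend, 51 in a fit of all 12 libraries, 38 with the adjusted p alone, 0 or 1 with 1 library left out and 161 with the block (682 higher and 342 lower with the adjusted p alone). In MOLM-13 cells 0 became 1 when any value above 0 was kept, and for the interaction 0 became 1 to 6. FPKM without depth and 3 libraries a group limit all these counts.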

Other observations

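The cap also holds ADRM1, a ubiquitin receptor, and SEM1, a small lid subunit, whose symbols lie outside the PSM series. ADRM1 was at 36.1, 29.2 and 29.2 FPKM in MOLM-13 and 43.8, 38.2 and 38.8 FPKM in THP-1 controls, and SEM1 at 17.04, 14.97 and 14.0 and 11.6, 11.4 and 11.3 FPKM. In limma the log2 fold change of THP-1 over MOLM-13 controls was 0.36 ± 0.10 for ADRM1 (adjusted p = 0.0102) and -0.42 ± 0.08 for SEM1 (adjusted p = 0.00179). With JOA they were -0.04 and -0.05 in MOLM-13 and 0.06 and 0.08 in THP-1 cells, and neither passed.

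Replicate 1 of the THP-1 controls was the highest of its group in 36 of the 47 expressed members, against 40.1% of all genes, and replicate 1 of the THP-1 JOA libraries in 18, against 36.7%. For PSMB9, replicate 1 was instead the lowest in both groups. PSMC3IP was at 11.1, 9.96 and 9.97 FPKM in THP-1 control and 11.2, 11.3 and 10.01 FPKM in THP-1 JOA replicates 1 to 3.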
